A study of Mus musculus with 8 samples.

Results

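ATAC-seq reads out open chromatin, because its transposase cuts DNA and adds sequencing adapters where nucleosomes leave the DNA exposed. Here the 4 libraries made 18 h and 48 h after an injection of retinoic acid (RA) were compared, 2 libraries per timepoint. All rows of the deposited peak table that belonged to these libraries were taken, which gave 123235 of the 328733 peaks of the 8 libraries in the series. Peaks that shared at least 1 bp were merged into 44030 regions, where the peaks of all 8 libraries merged into 87144. The question was what changed in accessible chromatin as spermatogonia moved from the A1/A2 to the A3 generation.

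Both groups were mice carrying the PIWIL2-eGFP transgene, on a background that the labels derive from C57BL/6 x 129s4/SvJae. All of them received WIN 18,446, a compound that blocks the synthesis of RA, for 7 days, and then a single RA injection. The 18 h group, staged as A1/A2 spermatogonia, and the 48 h group, staged as A3, differed in the time that passed after that injection. The mice were 9 days old at the injection, so those of the 48 h group were also older at collection. The transgene places GFP under the Piwil2 promoter in germ cells from before birth until the early spermatid stage, and eGFP-positive cells were sorted from the testes of 1 mouse for each library, so the sort selected germ cells but not a stage. The labels state 100000 cells per library, a larger number than the methods give, and the methods also give another strain cross. As these are bulk samples, a smaller share of cells with an open site and a less open site in every cell cannot be told apart.

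Undifferentiated spermatogonia commit to differentiation when RA binds its nuclear receptors. Committed cells become A1 spermatogonia, express the receptor KIT and the RA target STRA8, and pass through a fixed series of divisions before they enter meiosis. Open promoters with CpG islands are shared by most cell types, whereas open sites away from promoters, such as enhancers, differ more between cell types and stages.

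The windows that carry the results are given first, each as 200 bases around the summit on the plus strand of GRCm38 (mm10), from RefSeq, in lower case with every copy of CCAAT, or of its reverse complement ATTGG, in capitals. CCAAT is the core of the site bound by NF-Y, a 3-subunit transcription factor. The first lines show 5 of the 6 windows whose height passed the statistical threshold between 18 h and 48 h, the first pair higher and the other lines lower at 48 h.

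chr7:79976157-79976356: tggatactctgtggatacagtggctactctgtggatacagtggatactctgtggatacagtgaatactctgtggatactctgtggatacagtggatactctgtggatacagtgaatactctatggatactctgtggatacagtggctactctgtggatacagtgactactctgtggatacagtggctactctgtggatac
chr4:148271741-148271940: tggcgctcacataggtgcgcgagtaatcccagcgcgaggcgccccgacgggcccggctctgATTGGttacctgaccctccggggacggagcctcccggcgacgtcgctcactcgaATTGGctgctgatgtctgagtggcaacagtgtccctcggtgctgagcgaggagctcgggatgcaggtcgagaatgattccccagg
chr15:96787997-96788196: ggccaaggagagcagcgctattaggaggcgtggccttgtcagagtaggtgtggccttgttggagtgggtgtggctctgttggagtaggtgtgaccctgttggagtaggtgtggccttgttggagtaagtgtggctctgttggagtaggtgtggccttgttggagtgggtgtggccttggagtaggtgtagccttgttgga
chr8:47582877-47583076: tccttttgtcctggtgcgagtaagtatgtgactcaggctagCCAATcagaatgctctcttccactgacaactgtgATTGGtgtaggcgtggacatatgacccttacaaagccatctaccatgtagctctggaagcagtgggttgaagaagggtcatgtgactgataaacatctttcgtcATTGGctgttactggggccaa
chrX:7072413-7072612: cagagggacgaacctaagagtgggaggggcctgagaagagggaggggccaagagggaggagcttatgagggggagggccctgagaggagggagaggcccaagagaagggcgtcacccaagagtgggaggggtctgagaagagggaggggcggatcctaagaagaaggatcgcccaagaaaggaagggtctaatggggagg

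The next lines show windows with at least 4 copies of CCAAT that were lower at 48 h. The first pair are arrays of a short unit repeated head to tail, and the other lines are windows whose copies stand in sequence that does not count as such an array by the measure given later.

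chr13:97308541-97308740: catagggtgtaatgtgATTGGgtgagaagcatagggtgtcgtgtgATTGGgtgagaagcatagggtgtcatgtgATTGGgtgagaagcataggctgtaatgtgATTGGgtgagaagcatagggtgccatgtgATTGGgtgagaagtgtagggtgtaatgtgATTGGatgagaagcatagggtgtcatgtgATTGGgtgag
chr2:178178237-178178436: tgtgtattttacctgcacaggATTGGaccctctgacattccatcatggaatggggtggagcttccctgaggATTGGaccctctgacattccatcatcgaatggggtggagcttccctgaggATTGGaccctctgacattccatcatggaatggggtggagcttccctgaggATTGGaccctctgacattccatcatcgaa
chr10:76968253-76968452: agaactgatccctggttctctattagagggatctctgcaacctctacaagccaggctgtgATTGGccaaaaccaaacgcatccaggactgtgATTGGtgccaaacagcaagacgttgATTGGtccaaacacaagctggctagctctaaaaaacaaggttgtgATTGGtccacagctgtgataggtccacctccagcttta
chr15:74000925-74001124: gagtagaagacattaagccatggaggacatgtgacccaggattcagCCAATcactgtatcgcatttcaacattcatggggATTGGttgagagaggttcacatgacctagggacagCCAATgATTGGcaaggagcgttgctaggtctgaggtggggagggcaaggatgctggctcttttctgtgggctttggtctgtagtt

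The last line shows the window at the Pgk1 promoter, the 1 gene start among the 10 regions that were most strongly higher at 48 h.

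chrX:106186845-106187044: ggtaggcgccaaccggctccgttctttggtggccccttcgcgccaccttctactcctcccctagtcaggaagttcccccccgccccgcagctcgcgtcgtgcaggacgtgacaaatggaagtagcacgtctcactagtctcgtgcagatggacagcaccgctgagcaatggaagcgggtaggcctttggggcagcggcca

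In their overall measures the libraries of the 2 timepoints overlapped. The 18 h libraries held 28889 and 34423 peaks, and the 48 h libraries 25941 and 33982, so the groups overlapped (means 31656 ± 3913 and 29961.5 ± 5686, SD, n = 2; exact permutation test, two-sided, p = 0.667). With 2 libraries against 2 this test cannot give a p below 0.333, so it cannot decide whether the timepoints differ. Peak height was the deposited tag coverage at the summit, and before centring its median log2 over the regions that all 4 libraries shared was 6.34 and 6.66 at 18 h and 6.21 and 6.49 at 48 h (exact permutation p = 0.667, two-sided). Peaks within 1000 bp of a gene start made up 39.1% and 37.2% of the 18 h libraries and 44.7% and 37.8% of the 48 h libraries (exact permutation p = 0.667, two-sided). At both times replicate 1 held fewer and lower peaks than replicate 2. Nothing in the sources used here states whether replicate numbers mark a batch.

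The germ cell label was checked on 5 germ cell genes and on markers of other testis cells. Each of Ddx4, Dazl, Piwil2, Mael and Tex101 had a peak at its start in all 4 libraries, and the Piwil2 start stood at 494 and 551 at 18 h, against 331 and 647 at 48 h. Of the 7 regions of these genes with a peak in each of the 4, 0 were higher and 1 was lower (14.3%) beyond the replicate differences, by the measure defined later, and this was the start of Tex101, at 297 and 380 at 18 h, against 214 and 267 at 48 h. Endogenous Piwil2 is the gene whose promoter drives the sort marker. No region of the 8 Leydig cell genes had a peak in all 4 libraries, and these genes had 1, 1, 0 and 4 regions called in 18 h replicates 1 and 2 and 48 h replicates 1 and 2. Of the 11 Sertoli cell genes 5 had a peak in every library, with 11, 12, 10 and 16 regions called in the same order of libraries. Among their 5 regions with a peak in all 4 libraries, 1 lay higher at 48 h beyond the replicate differences, at the Wt1 start (57 and 75 at 18 h, 64 and 81 at 48 h). The start of Sox9, a transcription factor of Sertoli cells, had a region called only in the 48 h libraries, at 50 and 55, and 2 regions assigned to Inha, an inhibin subunit gene of these cells, were called only in the 18 h libraries (46 and 61, and 55 and 58). Peritubular, endothelial and blood cell genes had 4, 2 and 3 regions with a peak in all 4 libraries, of which 0 lay beyond the replicate differences. A promoter can be open without transcription, so these counts describe chromatin and not the number of such cells, and their part in the results below was not tested. As a background, 5.24% of the 19362 regions that all 4 libraries called lay higher by the same measure and 5.73% lower. Of all 44030 regions, 1.8% had calls only at 48 h and 3.03% only at 18 h. With so few regions per marker list, the counts above cannot tell a change from this background.

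Most open regions were called at both times. A peak in all 4 libraries was found in 19362 regions, which were 79.8% of the 24264 regions called in both 18 h libraries and 86.2% of the 22474 called in both 48 h libraries. The remaining combinations of libraries were smaller and were led by regions called in only 1 library, with 4659 in 18 h replicate 2 and 4318 in 48 h replicate 2.

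**Figure D1:**
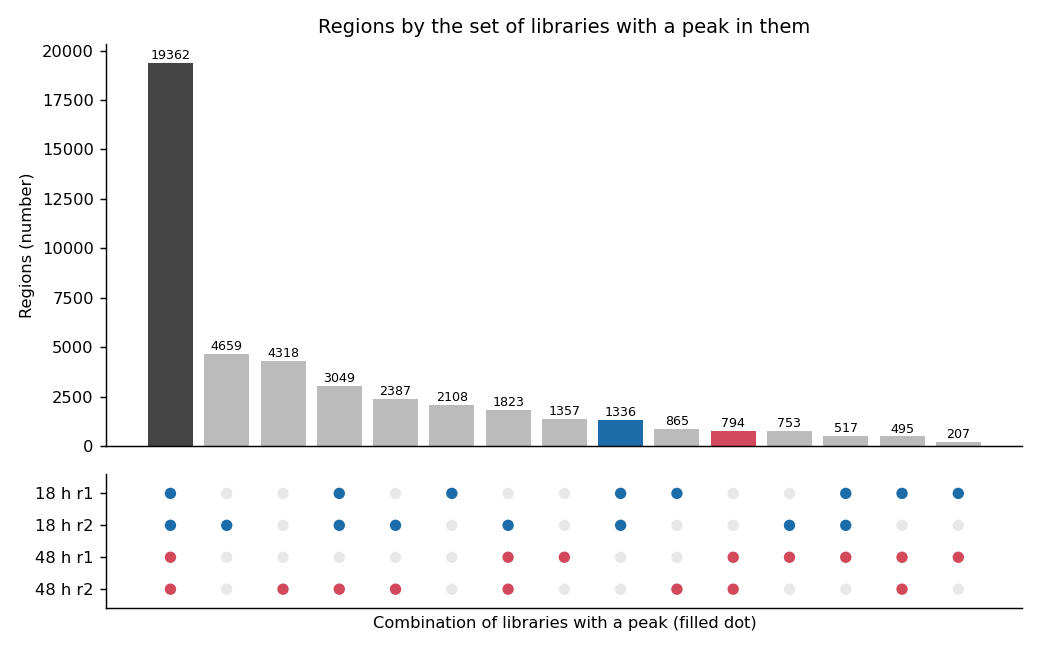
Number of merged regions for each combination of the 4 libraries with a peak in it. Bars give the number of regions, filled dots below each bar mark the libraries, and the bar of all 4 libraries (19362) exceeds those of regions called only at 18 h (1336, blue) or only at 48 h (794, red).

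Regions called in both 48 h libraries and in neither 18 h library numbered 794, which was 1.8% of the 44030 regions. Regions called in both 18 h libraries and in neither 48 h library numbered 1336, or 3.03%. Pairs that cross the timepoints gave 753, 207, 865 and 2387 regions called in exactly that pair, so the number of regions shared by the 2 libraries of a timepoint alone was within the range that pairs of libraries from different timepoints gave. Most of these regions were low, with a median of 41 for the lower of the 2 summits in both sets, where the lowest summit in the 4 libraries was 24. At least 50 was reached by 198 of the 794 and by 336 of the 1336. 

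Calls at 0 h and 120 h were read for both sets. Among the regions called only at 48 h, 82.0% were called in both 0 h libraries and 39.3% in both 120 h libraries. Of the regions called only at 18 h, 91.6% were called in both 0 h libraries and 16.8% in both 120 h libraries. The same shares over all 44030 regions were 88.2% and 49.4%. At 0 h the sets thus stood on either side of the share of all regions, and at 120 h both stood below it. The 0 h libraries held more peaks than any other, 72215 and 69089. Gene starts made up 21.7% of the regions called only at 48 h and 12.4% of those called only at 18 h. Their share was 32.2% over all 44030 regions and 49.0% of the regions called in all 4 libraries. Regions called in exactly 1 pair across the timepoints gave 13.2%, 15.9%, 23.8% and 32.4%. Low shares were thus also found in regions called in 1 library of each timepoint.

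The strongest region called only at 48 h, by the lower of its 2 summits, lay in an intron of the zinc transporter gene Slc39a14 at chr14:70346811-70347075, with 104 and 213 and with no peak in any of the other 6 libraries. An intron of Bahcc1 at chr11:120235750-120235990 stood at 93 and 116, and had peaks of 173 and 208 at 0 h. A coding exon of Kiss1r, the kisspeptin receptor gene, stood at 94 and 90 at chr10:79921704-79921991. These 3 lay at least 2737 bp from the nearest 18 h peak, whereas the regions near the starts of E2f3 (92 and 100), a cell cycle transcription factor, and Pcgf6 (87 and 97), a Polycomb subunit, lay 379 and 305 bp from one.

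Among the regions called only at 18 h, an intron of Nes, the gene of the intermediate filament nestin, stood at 108 and 143 at chr3:87974321-87974757, after 286 and 456 at 0 h. An intron of Usp20, which encodes a deubiquitinase, stood at 102 and 141 at chr2:30985373-30985650. Neither had a peak at 120 h. A region at the start of Tubb5 (116 and 154), a tubulin gene, had no overlapping peak at 48 h but lay 93 bp from one. Of the 8 strongest regions called only at 18 h, 3 were tandem repeats by the measure given later, as was 1 of the 8 strongest called only at 48 h. Over the full sets, 14.5% of the regions called only at 48 h and 8.46% of those called only at 18 h lay within 500 bp of a peak of the other time.

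Counted by the genes that the table assigns to peaks within 10 kb, 19200 genes had a peak in any of the 4 libraries and 15754 had one in all 4. A gene had peaks in both 48 h libraries and in neither 18 h library in 120 cases (0.625%), and the other way round in 166 cases (0.865%). Coro6, which encodes a coronin, was among the strongest of the first kind, with highest summits of 74 and 72. The strongest of the second kind was Usp20, and Gpt, an alanine aminotransferase gene, followed with 86 and 102. Prm1, which encodes a protamine that packs sperm DNA, was also among them, with a peak of 76 and 90 at chr16:10786380-10786694 that lies 2127 bp from the Tnp2 start and 315 bp from a 48 h peak.

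Heights were next compared in the 19362 regions that all 4 libraries called. Each library was set to a median log2 height of 0 over these regions, and the value compared is called the centred height. The difference between the 48 h and 18 h means had an SD of 0.273 across regions, where the difference between replicates had an SD of 0.339 at 18 h and 0.332 at 48 h. A mean of 2 libraries varies less than a single library, so single libraries were also compared across the timepoints, and their differences had SDs of 0.323 to 0.401. Of the 4 pairs across timepoints, 2 had an SD no larger than that of the 18 h replicates, 0.339. These were the pairs with 48 h replicate 2 (0.323 and 0.338). The larger SDs, 0.401 and 0.379, both belonged to pairs with 48 h replicate 1, a single library.

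**Figure D2:**
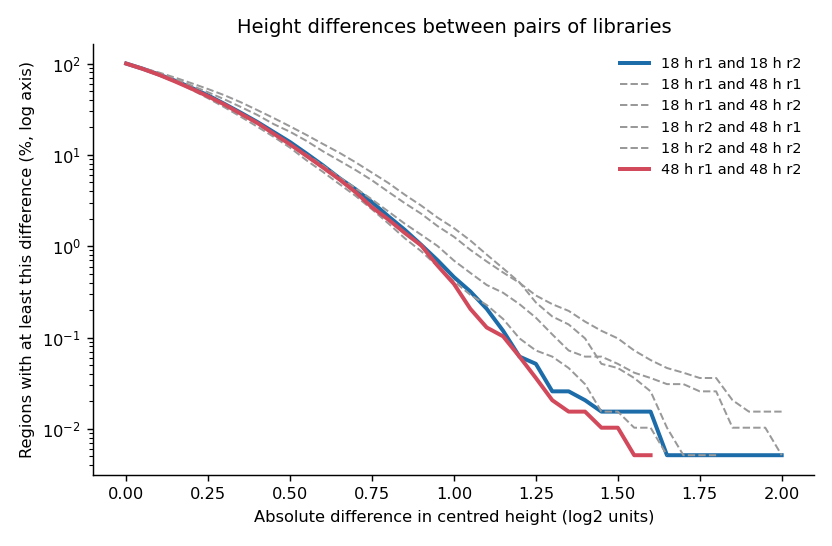
Share of the 19362 regions (log axis, in percent) whose centred height differs by at least the value on the horizontal axis (log2 units), for each pair of libraries. Solid lines are the replicate pairs (blue 18 h, red 48 h) and dashed grey lines the 4 pairs across timepoints. Of these, the 2 with 48 h replicate 1 lie above the replicate pairs up to a difference of 1. The pairs with 48 h replicate 2 lie close to the replicate pairs at small differences. At a difference of 1 or more, the pair with 18 h replicate 2 holds 0.697% of regions and that with 18 h replicate 1 0.413%. The replicate pairs hold 0.460% (18 h) and 0.387% (48 h) there.

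At an adjusted p under 0.05 (limma, Benjamini-Hochberg), 2 regions were higher at 48 h (0.0103% of those tested) and 4 were lower (0.0207%), and all 6 lay beyond the replicate differences. At an unadjusted p under 0.05 the numbers were 777 and 847. The split depended on the scaling, with 2 higher and 10 lower without centring and 3 higher and 17 lower when each library was centred on the median of all its peaks. These scalings moved the median difference of all regions from 0.016 to -0.132 and -0.087. With quantile normalization limma called 0 regions in either direction (1569 at an unadjusted p under 0.05), and likewise 0 in 1 fit of all 8 libraries (939).

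None of the 6 lay at a gene start. The chr7 and chr15 regions among them, 2 of the 6, were tandem repeats by the measure given later. The largest rise was at chr7:79975978-79976495, which lies in no gene, with 65 and 43 at 18 h and 130 and 162 at 48 h (log2 difference 1.61 ± 0.26, SE; limma adjusted p = 0.0203). Its 120 h libraries disagreed, at 211 and 35. The other rise was in a coding exon of Ptchd2 (Disp3 in GENCODE), a Patched-domain gene, at chr4:148271274-148272141, from 51 and 52 to 109 and 162 (1.52 ± 0.22, SE; limma adjusted p = 0.0131). At 0 h this exon had stood at 280 and 222, so that the 18 h libraries held the lowest values of all 8.

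The other 4 fell, each with both 48 h libraries below both 18 h libraries. The fall at chrY:90741012-90741762, which the table assigns to G530011O06Rik, was from 347 and 665 to 110 and 165 (-1.69 ± 0.24, SE; limma adjusted p = 0.0131), and its 120 h libraries again disagreed, at 731 and 112. The region at chr15:96787883-96788405, in no gene, went from 166 and 211 to 56 and 72 (-1.41, limma adjusted p = 0.0131). The region at chr8:47582765-47583210, also in no gene, went from 125 and 126 to 36 and 53 (-1.37, limma adjusted p = 0.0203) after 237 and 355 at 0 h. Its window holds 3 copies of CCAAT, marked in the sequence above. An intron of the X-linked gene Akap4, which encodes an anchoring protein of the sperm tail, went from 102 and 145 to 34 and 56 at chrX:7071939-7072767 (-1.33, limma adjusted p = 0.0313). Its 0 h libraries had stood at 129 and 237 and its 120 h libraries at 62 and 39. With 48 h replicate 1 left out, the chr8 and Akap4 regions no longer passed the threshold (-1.24 and -1.11), and with 18 h replicate 2 left out, the Akap4 region (-1.24) and the chr7 region (1.15) did not.

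A second measure called a region higher or lower when the gap between the nearest libraries of the 2 timepoints exceeded the larger of the 2 replicate differences. By this measure 1015 regions were higher at 48 h (5.24%) and 1109 were lower (5.73%), and these are called the higher set and the lower set below. Without centring the counts were 269 and 935, and with centring on all peaks 431 and 1009. Simple non-overlap of the timepoints held for 3730 regions (19.3%) in the higher and 3532 (18.2%) in the lower direction.

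**Figure D3:**
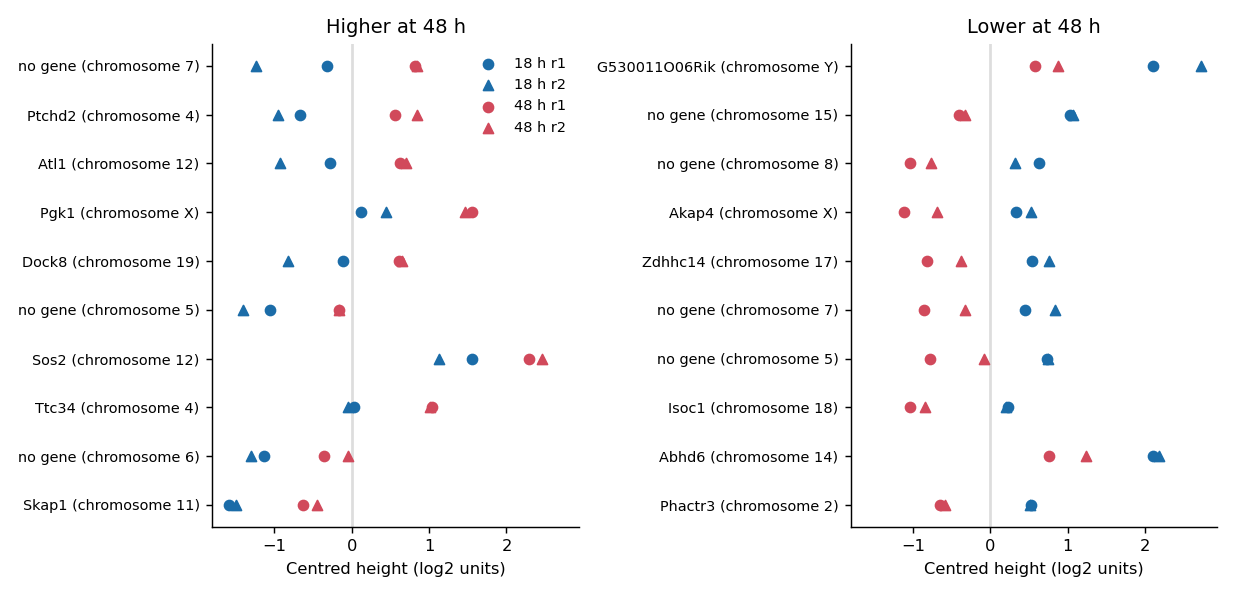
Centred height (log2 units, horizontal axis) in the 18 h (blue) and 48 h (red) libraries of the 10 regions with the largest positive and the 10 with the largest negative difference among those beyond the replicate differences. Circles are replicate 1 and triangles replicate 2, and in every row the 2 timepoints stand apart by more than the replicates of either.

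The other members of the higher 10 did not pass the limma threshold and are given as values. The Pgk1 promoter, 155 bp from the gene in GENCODE, stood at 88 and 137 at 18 h, against 217 and 248 at 48 h (1.23 ± 0.22, SE; limma adjusted p = 0.0508). Pgk1 encodes a glycolytic kinase and lies on the X chromosome, and its promoter had been at 250 and 462 at 0 h and was at 287 and 274 at 120 h, so the 18 h libraries were the low ones. An intron of the atlastin gene Atl1 stood at 67 and 53 against 114 and 147, and an intron of Dock8, an activator of a small GTPase, at 75 and 57 against 113 and 141. At 120 h both introns stood higher in replicate 1 (249 and 354) than in replicate 2 (84 and 166). An intron of Sos2, which activates RAS, stood at 238 and 221 against 362 and 497. Introns of Ttc34 and Skap1 and regions on chromosomes 5 and 6 in no gene complete the 10, which spanned log2 differences of 1.00 to 1.61.

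Among the lower 10, none lay at a gene start, 6 lay in no gene and 4 in introns. An intron of Abhd6, a lipase gene, stood at 349 and 456 at 18 h, against 125 and 212 at 48 h (-1.14; limma adjusted p = 0.0858), and at 0 h at 784 and 982. An intron of Zdhhc14, a palmitoyltransferase gene, stood at 118 and 171 against 42 and 69, after 394 and 404 at 0 h. The Phactr3 intron shown above stood at 117 and 144 against 47 and 60, after 324 and 415 at 0 h. These summit values are not centred, and the median summit of all peaks was also higher at 0 h (75 and 83) than at 18 h (63 and 67) and 48 h (62 and 64). The 10 spanned log2 differences of -1.69 to -1.14.

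The 2 sets differed in where they lay. Gene starts made up 49.8% of the higher set and 38.6% of the lower set, against 49.0% of all 19362 regions. The X chromosome held 0.887% of the higher set and 3.88% of the lower set, against 2.05% of all. Of its 396 regions, 9 were higher and 43 lower beyond the replicate differences. The median centred height of these 396 was -0.19 and -0.14 in the 18 h libraries. In the 48 h libraries it was -0.30 and -0.31, so that the timepoints did not overlap. Such medians also stood apart on chromosomes 1, 7, 10, 13 and 16, with 48 h lower. On chromosomes 2, 4, 6, 9, 12 and 19 they stood apart with 48 h higher. The lowest median difference of an autosome was -0.051, on chromosome 13, against -0.093 on the X chromosome. The median difference of X-linked regions was 0.112 below that of autosomal regions on the log2 scale, 0.186 below it with 18 h replicate 1 left out and 0.067 below it with 18 h replicate 2 left out. The median difference was -0.092 at 274 starts of X-linked genes and -0.101 in the other 122 X-linked regions. The X chromosome was singled out after its values were seen, and the Pgk1 promoter runs against it.

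Heights at 0 h and 120 h were not used to form the sets. They were read from the region merged over all 8 libraries, which can be wider than the region compared at 18 h and 48 h. In the 839 regions of the lower set that all 8 libraries called, the 0 h libraries had median centred heights of 0.43 and 0.40, the 18 h libraries 0.45 and 0.41, the 48 h libraries -0.03 and 0.03, and the 120 h libraries -0.02 and -0.16. The 392 of these regions at gene starts had medians of 0.69 and 0.76 before RA. At 18 h the same starts gave 0.87 and 0.86, their 48 h medians were 0.53 and 0.56 and those of the 120 h libraries 0.65 and 0.79, so there the 0 h and 120 h libraries overlapped. In the 829 regions of the higher set the 0 h libraries had medians of -0.35 and -0.38, and the 120 h libraries -0.10 and -0.14. The difference between 120 h and 0 h had a median of -0.30 in the lower set, 0.30 in the higher set and 0.14 in the 13999 regions of neither set. Away from gene starts it was -0.63 in the lower set, with 17.7% of regions higher at 120 h, against -0.18 and 40.0% in regions of neither set. At gene starts of the lower set it was 0.08, with 57.7% of regions higher at 120 h, against 0.32 and 70.9% at gene starts of neither set.

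**Figure D4:**
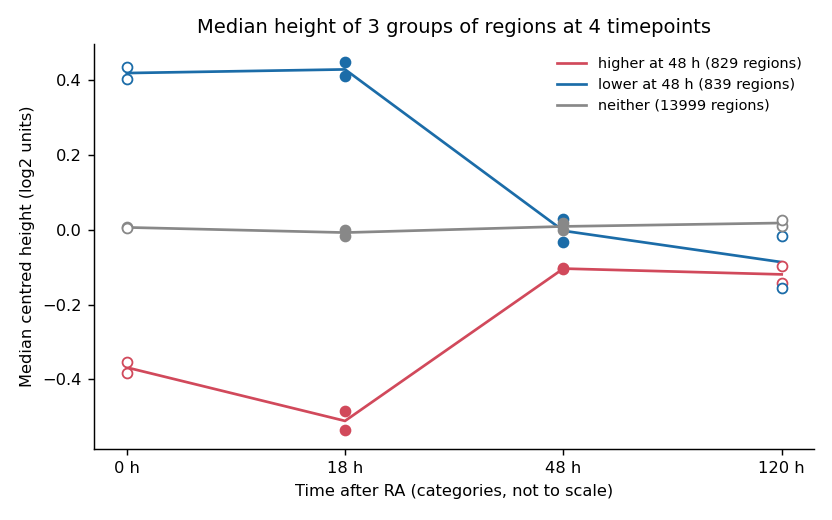
Median centred height (log2 units) of the higher set (red), the lower set (blue) and the other regions (grey) in each library of the 4 timepoints, for regions with a peak in all 8 libraries. Filled points are the libraries used to form the sets and open points those not used, and lines join the timepoint means. The lower set lies above 0.4 at 0 h and 18 h and near or below 0 at 48 h and 120 h.

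Of the motifs searched, CCAAT differed most between the sets in percentage points. At least 1 copy within the window was present in 31.8% of all regions, in 22.0% of the higher set and in 43.0% of the lower set. It was 1 of 14 short motifs and 1 retinoic acid response element searched on both strands. The GC box GGGCGG was present in 34.2% of the higher and 33.3% of the lower set (39.4% of all), the ETS core CCGGAA in 14.9% and 13.4% (15% of all) and the E-box CACGTG in 8.57% and 5.14% (6.37% of all). Some rarer motifs were also less frequent in the higher set. These included the cAMP response element TGACGTCA, in 1.38% and 2.8% (389 of the 19362 regions), and the forkhead motif TGTTTAC, in 1.77% and 3.43% (2.51% of all). The YY1 motif AAGATGGC went the other way, in 2.96% and 1.71% (2.46% of all). Regions with the forkhead motif had a median difference of -0.066, against -0.038 for those with CCAAT. The nuclear receptor half-site AGGTCA was in 9.95% and 9.92% (9.03% of all). A retinoic acid response element with a 5-base gap was found in 5 of the 19362 windows, too few to compare. All 1955 strings of 6 letters found in at least 400 windows were then scanned, counting a string and its reverse complement together. ACCAAT had the lowest median difference, and 4 of the lowest 10 strings held CCAAT, where 8 such strings were scanned. Of the highest 10 strings, 7 were made of C and G only. The scan used the same height differences as the sets.

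Away from gene starts the difference grew with the number of copies. The median difference was 0.004 in the 6993 regions with 0 copies, -0.029 in 1932 with 1 copy, -0.109 in 614 with 2, -0.211 in 221 with 3 and -0.371 in 112 with 4 or more. The share of regions in the lower set went over the same classes from 5.98% to 7.14%, 9.45%, 18.6% and 23.2%, and the share in the higher set went from 5.78% to 0.893%. With 2 copies the median centred height was 0 and -0.04 at 18 h, against -0.26 and -0.08 at 48 h. With 3 copies it was 0.15 and 0.21 against -0.14 and 0.02. In both classes the gap was smaller than the difference between the 48 h replicates. In the class with 4 or more copies the median centred height was 0.51 and 0.59 in the 18 h libraries and -0.09 and 0.20 in the 48 h libraries, which did not overlap. The libraries outside the comparison gave 0.63 and 0.59 at 0 h and -0.20 and -0.34 at 120 h.

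At gene starts the same classes differed less. The median difference there was 0.078 with 0 copies and -0.058 in the 98 regions with 4 or more, and in each class the libraries of the 2 timepoints overlapped. Gene starts with 4 or more copies were the highest of these classes at both times, with medians of 1.74 and 1.83 at 18 h and 1.79 and 1.66 at 48 h. Away from gene starts, regions with at least 2 copies had a median difference 0.166 below that of regions with none, and between 0.112 and 0.227 below it in the alternatives, all chosen after the pattern was seen. CCAAT copies also moved with height and base composition. In each of 5 equal bins of regions by mean height, those with at least 2 copies had a lower median difference than those with none (from -0.054 against 0.104 in the lowest bin to -0.062 against -0.006 in the highest). In the bin with the highest GC content, of 5, regions with at least 2 copies did not have a negative median difference (0.024 against 0.092 with none).

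**Figure D5:**
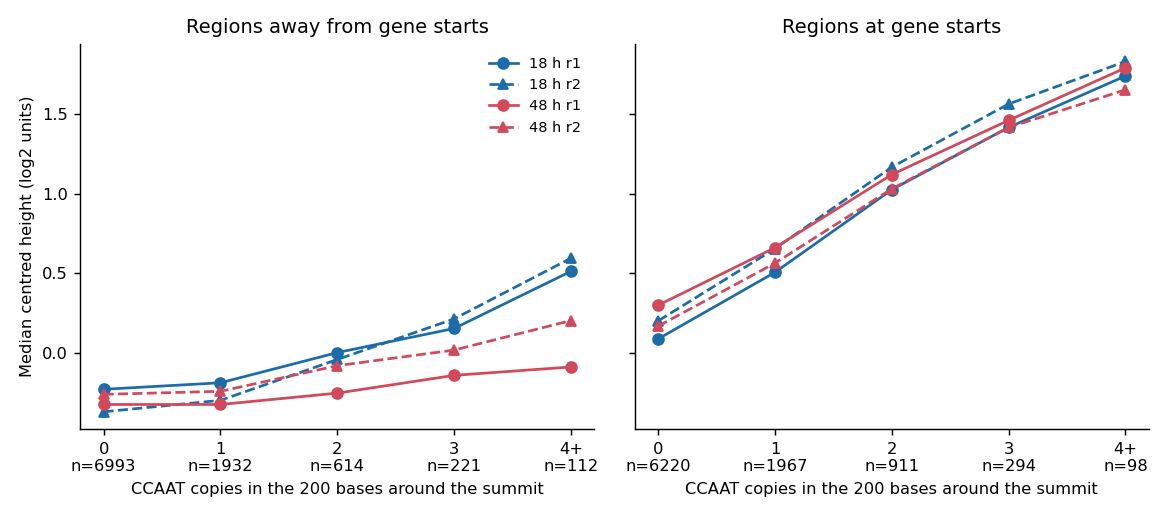
Median centred height (log2 units) of regions with 0 to 4 or more copies of CCAAT within 200 bases around the summit, away from gene starts (left) and at gene starts (right), in the 18 h (blue) and 48 h (red) libraries. The number of regions is given under each class. On the left the 48 h libraries lie below the 18 h libraries from 2 copies on. With 2 or 3 copies this gap is smaller than the difference between the 48 h replicates. On the right the libraries of the timepoints overlap in every class.

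Several of the windows shown are tandem arrays, which was noticed from their sequences. A window was counted as a tandem repeat when at least 60% of its bases equalled the base a fixed shift away, for any shift of 8 to 100 bases. The chr13:97308541-97308740 window reached 93.0% at a shift of 58 bases, and its region stood at 277 and 338 at 18 h, against 96 and 179 at 48 h. The Phactr3 window reached 88.7% at a shift of 50. Tandem repeats were 475 of the 19362 windows (2.45%), 1.18% of the higher set and 4.42% of the lower set. They were 4 of the 10 regions most strongly lower at 48 h and 2 of the 10 most strongly higher, so they were found in both directions. Of the 6 regions past the limma threshold they were 2, the chr7 region (higher at 48 h) and the chr15 region (lower). The median of all 475 was 0.30 and 0.22 at 18 h and -0.14 and 0.17 at 48 h. How the aligner places reads in such arrays was not tested.

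The CCAAT pattern remained when windows past the 60% cutoff were left out. This cutoff leaves in some windows with repeated units. Among them are chr4:8965693-8965892, at 59.4% with 4 copies, and a window in a Prkcb intron, at 48.2% with 6 copies. Whether the pattern stands apart from all repeat arrays was not tested. With tandem repeats left out, the median differences away from gene starts were 0.009, -0.028, -0.104, -0.212 and -0.279 for 0 to 4 or more copies. The class of 4 or more then held 70 regions, of which 14 were in the lower and 0 in the higher set. Its median centred height was 0.42 and 0.47 at 18 h, against -0.14 and 0.16 at 48 h. This gap was smaller than the difference between the 48 h replicates. The window at Pcbp3, chr10:76968253-76968452, with 4 copies, is in this class and its region stood at 110 and 107 against 49 and 64. The window at chr15:74000925-74001124, in no gene, also has 4 copies, and its region stood at 95 and 124 against 41 and 61.

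Genes of spermatogonial development were read from fixed lists, by how many of their regions with a peak in all 4 libraries lay beyond the replicate differences, where the background was 5.24% higher and 5.73% lower. Only 1 region of any list passed the limma threshold, the Akap4 intron already described. For the 26 genes of undifferentiated spermatogonia, 2 of 39 regions were higher and 4 lower (10.3%), with a median difference of -0.11. All 26 had a peak in at least 1 of the 4 libraries. An intron of Sdc4, which encodes a syndecan, stood at 110 and 158 at 18 h, against 67 and 60 at 48 h (chr2:164430703-164431152; -0.91 ± 0.23, SE; limma adjusted p = 0.238). It had been at 281 and 189 at 0 h and stood at 60 and 51 at 120 h.

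An intron of Gfra1, the GDNF co-receptor of undifferentiated cells, stood at 91 and 90 against 45 and 59 (-0.66; limma adjusted p = 0.413). The region 3548 bp from the start of Nanos2, a translational repressor of stem cells, stood at 240 and 309 against 175 and 228 (-0.30). A coding exon of Enc1 stood at 73 and 93 against 56 and 64 (-0.31). In these 3 regions all 48 h values were below all 18 h values. Other regions of these genes did not separate, such as 1 upstream of Nanos2 (146 and 147 against 111 and 181, 0.10). Upstream of Neurog3, a region stood at 185 and 239 against 94 and 171 (-0.58), and upstream of Ptch1, the Hedgehog receptor gene, at 186 and 284 against 105 and 177 (-0.61). In both the 48 h libraries were lower, but the gap between the timepoints did not exceed the replicate differences. Regions of Foxo1, Pax7, Eomes, Utf1, Ptch1 and Zfp462 were called only at 18 h (6 regions), and 1 region of Pdx1 only at 48 h. The list had 96 regions in any of the 4 libraries. Over all 44030 regions, 3.03% were called only at 18 h and 1.8% only at 48 h. The 2 higher regions were assigned to Bcl6b, 8678 bp from its start and at the start of another gene (102 and 124 against 115 and 129, 0.26), and to Cdh1, beyond the end of the gene (38 and 43 against 42 and 47, 0.28). Over the 11 gene start regions of the list the median difference was -0.14, and the values ranged from -0.34 at Id4 (142 and 183 against 90 and 147) to 0.30 at Bcl6b (75 and 110 against 92 and 110), and the Sox3 (-0.05), Zbtb16 (-0.15) and Onecut2 (-0.14) starts lay between.

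Pou5f1, the gene of a pluripotency factor, had a region 10896 bp from its start at 191 and 287 against 172 and 166 (-0.32). The RNA-binding protein gene Lin28a had an intronic region at 169 and 236 against 143 and 142 (-0.34) and 1 at another gene's start, 17840 bp from its own, at 279 and 304 against 226 and 262 (-0.11). In these 3 regions each 48 h value was below each 18 h value on the raw scale, whereas a Lin28a region 1200 bp from its start had no peak and 48 at 18 h, against 56 and 68 at 48 h. Limma adjusted p-values were 0.731 to 0.934.

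Among the 15 genes of differentiating spermatogonia, 2 of 23 regions were higher and 1 lower, with a median difference of -0.01. Stra8, the RA target needed for entry into meiosis, had 3 regions near its start. The start itself stood at 133 and 192 at 18 h, against 165 and 168 at 48 h (0.21 ± 0.22, SE; limma adjusted p = 0.862), an upstream region at chr6:34910380-34911215 at 103 and 120 against 129 and 160 (0.52 ± 0.21, SE; limma adjusted p = 0.524), and a region at -1440 bp from the start was called only at 48 h, at 98 and 75. The last lies 370 bp from an 18 h peak and had been called at 0 h, at 64 and 65. The start of Kit, the receptor that marks differentiating cells, stood at 107 and 150 against 127 and 142 (0.23), and a region 629 bp into the gene was called only at 48 h, at 49 and 50, 182 bp from an 18 h peak. An intron of Dnmt3a, a DNA methyltransferase gene, was in the lower set at 124 and 146 against 93 and 105 (-0.30).

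The 31 meiotic genes had 2 higher and 0 lower of 41 regions, with a median difference of 0.12. The start of Ythdc2, an RNA helicase gene required for the meiotic program, stood at 48 and 63 against 69 and 76 (0.55 ± 0.21, SE; limma adjusted p = 0.504), and that of Terb1, a meiotic telomere gene, at 79 and 98 against 86 and 96 before centring (0.19). The start of Spo11, which makes the meiotic DNA breaks, was called only at 48 h, at 52 and 61, but also at 0 h (80 and 125) and 120 h (85 and 74). The lowest meiotic gene start was that of Meioc (198 and 282 against 231 and 137, -0.26), and an intron of the same gene was called only at 18 h, at 39 and 42. No meiotic region passed the limma threshold.

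The 18 piRNA pathway genes had 1 higher and 3 lower of 25 regions. The starts of Asz1 (133 and 192 against 97 and 108, -0.49) and Mov10l1 (189 and 235 against 131 and 159, -0.40) were in the lower set and that of Tdrd9 (60 and 77 against 78 and 87, 0.43) in the higher set. These 3 encode proteins of piRNA production and transposon silencing. The start of Piwil4, a nuclear PIWI protein gene, was called only at 18 h, at 33 and 54, near the calling limit, and a coding exon of Piwil2 was called only at 48 h, at 54 and 88. The 38 chromatin genes had 3 higher and 3 lower of 66 regions and a median difference of 0.09. The start of Kdm4d, a histone demethylase gene, had the largest difference of its list (72 and 83 against 110 and 106, 0.63 ± 0.22, SE; limma adjusted p = 0.445), and a region upstream of Ehmt2, a histone methyltransferase gene, was lower (125 and 164 against 79 and 109, -0.48).

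The 18 genes of RA synthesis, binding and breakdown had 1 higher and 2 lower of 18 regions, with a median difference of 0.02. An intron of the receptor gene Rarg stood at 152 and 162 against 92 and 116 (-0.45), an intron of Rara at 133 and 174 against 107 and 130 (-0.22), and a region 12139 bp from the start of Crabp2, a cellular RA-binding protein gene, at 48 and 52 against 55 and 71 (0.47). Of the RA-degrading enzyme genes, Cyp26c1 had an exonic region called only at 48 h (61 and 47). Of the RA synthesis genes, Rdh10 had a coding exon region called only at 48 h (35 and 35), and the start of Aldh1a3 was called only at 18 h (34 and 51). The 19 genes of PI3K and mTOR signalling had 1 higher and 4 lower of 32 regions and a median difference of -0.08, with an intron of Rptor at 142 and 205 against 105 and 131 (-0.39). The 35 cell cycle genes had 1 higher and 2 lower of 56 regions and a median difference of 0.01. The 20 spermatid genes had 0 higher and 1 lower of 11 regions, the Akap4 intron, and 2 of the genes, Prm1 and Catsper1, had peaks only at 18 h.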

How the data were processed

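ATAC-seq libraries of sorted PIWIL2-eGFP germ cells were used, 2 at 18 h and 2 at 48 h post-RA, with the 0 h and 120 h libraries as a reference. Per the labels, bcl2fastq 2.20, BWA 0.7.12, SAMtools 0.0.19, bedtools 2.25.0 and MACS2 2.1.0 were used with mm10. The authors removed duplicate and mitochondrial tags, reduced each library to one number of tags, called peaks per library and deposited the signal, as tag coverage, at each summit and averaged over each peak. Because tags were reduced to one number before deposit, differences in sequencing depth are not visible in these values, so values carry no counting interval here. Other deposited track files and the list of merged regions were not used.

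Overlapping peaks were merged, the highest summit signal of a library in a region was taken on the log2 scale with no pseudocount, and each library was centred on its median over regions with a peak in all 4 libraries. limma 3.58.1 under R 4.3.3 tested the timepoints (linear fit with moderated variance, no block, Benjamini-Hochberg, threshold 0.05). The regions without a peak in all 4 libraries have no height in each library and were not in this test. Calls and heights at 0 h and 120 h came from the region merged over all 8 libraries that holds the region compared. That region can be wider. Library measures were compared by exact permutation tests. Tables were made in Python 3.11.15 with pandas 2.3.3 and NumPy 2.4.6, and sequences read with pyfaidx 0.9.0.4. Positions were taken from GENCODE M21 and gene assignments from the deposited table. The scripts were tested on simulated data. Labels state separate replicates, and the methods 1 mouse per library. The p-values therefore measure the spread between libraries, in which mouse and preparation cannot be told apart.

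Regions named were the 10 largest differences in each direction among those beyond the replicate differences, the 8 strongest called at 1 timepoint only, all past the limma threshold, and the genes of the lists whose regions met these criteria, were called at 1 timepoint only or lay at the extremes of their list, with the 13 marker genes shown by the study. The regions compared, lists and motifs were chosen with earlier results of these data known. Alternatives were other definitions of a shared peak, other centring, GC correction, the mean signal of a peak, replicate blocks, all 8 libraries, an intensity trend, other filters and each library left out. The alternatives for CCAAT and the X chromosome, the crossed pairing and the tandem repeat measure were chosen after seeing the data. A few genes that this rule names are not reported here.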

Additional observations from a re-analysis of the deposited data

How the results depend on the processing

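Library measures turned with single libraries left out. The difference of 48 h minus 18 h ranged from -5715 to 2326 peaks, with 1072.5 without 18 h replicate 2 and 2326 without 48 h replicate 1, from -0.308 to 0.0108 in median height, and from -0.352 to 6.55 percentage points at gene starts. Regions called only at 48 h (794) numbered 397 with summits of at least 50, 6469 with a peak in either replicate, and 1289 to 5112 with a library left out. Regions called only at 18 h (1336) numbered 8103 with either replicate and 1853 to 5995 with a library left out, and regions at both times 29458 and 19857 to 22411. The other definitions of a shared peak stayed within 1.5 times.

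The 6 limma calls became 12 without centring, 20 with centring on all peaks, 43 with an intensity trend, 42 with mean signal, and 8 to 82 with a library left out, the most without 48 h replicate 2 and 31 without 18 h replicate 1. A timepoint left with 1 library is assumed there to vary like the other. The limma count was 0 under quantile normalization (1569 regions at an unadjusted p under 0.05), 0 in 1 fit of all 8 libraries (939) and 0 with missing peaks set to the lowest value (2628). The 2124 regions beyond the replicate differences became 1204 without centring, 3994 with missing peaks set to the lowest value, and 6126 to 7389 with a library left out, where 1 replicate difference remains. The 6 regions kept their direction throughout and their call in 10 to 13 of 14 to 16 alternatives each.

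The shared replicate numbers give 2 pairs, fewer than the 3 needed to check a pairing, and same-numbered deviations correlated at -0.122. The replicate block gave 39 calls, 37 with GC correction, and the crossed pairing 5.

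Of 67 named regions, 17 of 1039 values reversed, all small: Rps6kb1 (0.0679 with mean signal), Nanos2 at chr7:18978794-18979214 (-0.0476 without centring, -0.00303 centred on all peaks, -0.111 to 0.312 with a library left out, with -0.0535 without 18 h replicate 2), with a library left out Sox3 (-0.146 to 0.0524), Zbtb16 (-0.421 to 0.117) and Onecut2 (-0.389 to 0.110), and 3 Sdc4 regions. The first was at -0.0205 without centring and -0.0776 to 0.333 with a library left out, the second at -0.106, -0.0611 centred on all peaks, -0.0530 with mean signal and -0.0660 to 0.151, and the third at -0.371 to 0.0348. The X chromosome difference was -0.186 with 18 h replicate 1 left out and -0.0666 with 18 h replicate 2 left out. With 2 libraries per timepoint and a median SE of 0.221, small differences could not be called.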
